A study of Homo sapiens with 4 samples.

Results

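The transcripts described here are the antisense and divergent long non-coding RNA (lncRNA) genes with ribosome footprint signal in 4 human leukemia cell lines. They were selected on their names and their measured values. A member is a gene whose symbol ends in -AS, -AS and a digit, or -DT, does not start with HOX, and reached a deposited TPM (a read density normalised for transcript length and library size) of 1 together with 600 aligned bases in the same library, for at least 1 library. Of 60651 genes in the files, 1617 carried such a name and 254 met the minimums, 216 of them -AS and 38 -DT genes. Because the levels chose the members, those levels are given as a description.

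Ribosome profiling sequences the mRNA pieces that ribosomes shield from nuclease, so its signal marks RNA bound by ribosomes or otherwise protected from digestion. Each line was measured in 1 library, from cells lysed with cycloheximide, which holds ribosomes in place. K562 is a chronic myeloid leukemia line with erythroid features, THP-1 a monocytic, MOLM13 a myelomonocytic and HL60 a promyelocytic acute leukemia line. With 1 library per line there was no replicate check and no test between lines, and a difference compares these libraries. The labels' protocols name no treatment, the lines did not all share a culture medium, and each stands for 1 leukemia. All values below are for these 4 libraries, in the order K562, THP-1, MOLM13 and HL60 where no line is named.

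Antisense transcripts are made from the strand opposite a neighbouring gene, often across its exons, and divergent transcripts start beside a gene's promoter and run away from it. Many such RNAs stay in the nucleus, where some act on the transcription of the neighbour, and others reach the cytoplasm, where ribosomes can engage them. A member's parent is the gene whose symbol remains once the suffix is dropped, and the reads were assigned without strand information, so reads from a member and from an exon lying opposite it cannot be told apart.

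The libraries held 473, 678, 344 and 973 Mb of aligned sequence. The members took 0.0924%, 0.148%, 0.116% and 0.106% of them. TPM was divided by a scaling factor per library, 0.837, 1.01, 1.12 and 1.05, and the result is called the level or scaled TPM. A level does not separate the amount of an RNA from its loading with ribosomes, and in bulk libraries fewer expressing cells and less RNA per cell cannot be told apart. Marker genes were highest in their own library for 6 of 6 K562 markers, 5 of 6 THP-1 markers, 2 of 6 HL60 markers and 1 of 6 MOLM13 markers. FLT3 and MEIS1, which mark MOLM13, were listed at 0 in the MOLM13-labelled library, but reached only 1.83 and 1.81 in any library. CD33 and CSF1R stood at 5.46 and 0 there, below THP-1 for both. HOXA9 was highest there, at 29.5 against 2.61, 15.7 and 3.05 in K562, THP-1 and HL60. HOXA10 stood at 16.2 there, against 1.65, 18.7 and 2.49. The markers thus go both ways and do not bear out its label. The deposited file of that sample also carries a name other than MOLM13, so every value given for it is that of a library whose identity is in doubt.

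The first set of sequences shows why strand matters for the highest members. Each pair gives a stretch of a member's exon and the coding sequence of the gene on the other strand (GRCh38, GENCODE 29 transcripts), with coding bases in capitals and the member's other bases in lower case. In all 3 pairs the capitals of the member are the exact reverse complement of the gene's coding bases. This holds by construction, as opposite strands of the same positions must match. The CPB2-AS1 stretch lies at chr13:46158826-46158885 on the plus strand and was read through the LCP1 transcript, the VPS9D1-AS1 stretch at chr16:89711882-89711941 on the plus strand, and the SLC25A5-AS1 stretch at chrX:119468567-119468656 on the minus strand.
CPB2-AS1: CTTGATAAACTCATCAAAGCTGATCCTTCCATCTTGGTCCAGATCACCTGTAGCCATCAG
LCP1: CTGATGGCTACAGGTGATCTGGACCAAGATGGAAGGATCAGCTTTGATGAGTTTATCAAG
VPS9D1-AS1: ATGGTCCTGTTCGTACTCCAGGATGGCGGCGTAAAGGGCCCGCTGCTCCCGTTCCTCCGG
VPS9D1: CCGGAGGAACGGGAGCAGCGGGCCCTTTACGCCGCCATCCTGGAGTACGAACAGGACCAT
SLC25A5-AS1: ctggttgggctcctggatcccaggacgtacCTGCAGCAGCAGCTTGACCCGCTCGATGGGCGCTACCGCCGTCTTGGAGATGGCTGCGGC
SLC25A5: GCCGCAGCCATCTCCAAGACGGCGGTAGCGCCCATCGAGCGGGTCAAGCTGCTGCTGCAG
A footprint of about 29 bases, the modal length on single-exon transcripts, would map equally to either name within the capitals. The coding overlap covered 358 of 2923 bases of the CPB2-AS1 exon, 141 of 367 for VPS9D1-AS1 and 111 of 3062 for SLC25A5-AS1. Coverage was deposited per exon, so the position of the reads inside an exon is not known here.

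The second set holds first exons of members whose printed exon lay opposite or beside no exon of another gene, so that their signal has no second annotated source there. They come from GENCODE 29 transcripts with the same exons as in the deposited files, and capitals mark each ATG, the usual start codon. SCOC-AS1 exon 1 is at chr4:140373263-140373381 on the minus strand, LLPH-DT exon 1 at chr12:66130751-66130975 on the plus strand, TRG-AS1 exon 1 at chr7:38341577-38341799 on the plus strand, CHRM3-AS2 exon 1 at chr1:239718950-239719119 on the minus strand and EPS15-AS1 exon 1 at chr1:51518309-51518483 on the plus strand.
SCOC-AS1: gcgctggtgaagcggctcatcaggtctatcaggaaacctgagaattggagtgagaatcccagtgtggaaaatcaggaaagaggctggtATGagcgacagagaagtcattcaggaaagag
LLPH-DT: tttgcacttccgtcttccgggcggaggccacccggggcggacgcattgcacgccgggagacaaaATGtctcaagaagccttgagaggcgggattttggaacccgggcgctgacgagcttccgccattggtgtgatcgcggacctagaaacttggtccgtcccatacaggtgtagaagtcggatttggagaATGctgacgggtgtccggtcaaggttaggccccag
TRG-AS1: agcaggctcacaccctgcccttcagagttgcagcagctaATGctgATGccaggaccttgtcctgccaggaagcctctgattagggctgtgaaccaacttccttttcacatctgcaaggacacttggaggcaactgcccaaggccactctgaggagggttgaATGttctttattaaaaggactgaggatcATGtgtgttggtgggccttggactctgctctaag
CHRM3-AS2: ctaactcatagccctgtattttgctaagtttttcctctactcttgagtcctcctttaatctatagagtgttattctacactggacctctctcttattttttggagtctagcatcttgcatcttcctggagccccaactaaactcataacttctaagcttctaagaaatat
EPS15-AS1: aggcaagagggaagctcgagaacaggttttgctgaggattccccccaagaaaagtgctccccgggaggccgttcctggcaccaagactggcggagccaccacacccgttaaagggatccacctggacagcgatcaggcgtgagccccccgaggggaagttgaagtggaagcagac
The exons of SCOC-AS1, LLPH-DT and TRG-AS1 hold 1, 2 and 4 ATG triplets on the transcribed strand. Those of CHRM3-AS2 and EPS15-AS1 hold 0, yet both were covered, at a mean of 16.7 reads per base in the MOLM13-labelled library and 9.24 in K562. An ATG is a match of letters and no evidence that a ribosome starts there.

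The highest level of any member was that of CPB2-AS1, which is named for the carboxypeptidase gene CPB2 but ends across exons of LCP1, the leukocyte actin-bundling protein L-plastin. CPB2-AS1 was listed at 0 in K562 and stood at 44.8 in THP-1, 23.7 in the MOLM13-labelled library and 84.3 in HL60. CPB2 was listed at 0 in all 4 libraries, while LCP1 stood at 114, 587, 194 and 735. CPB2-AS1 and LCP1 were thus both highest in HL60 and both lowest in K562, and 96.3% of the CPB2-AS1 bases lay on exons that overlap a coding exon. When the levels of the genes that share its exons were added to it, the K562 value lay 0.91 (log2) below the lowest other line, against 4.63 for CPB2-AS1 by itself.

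VPS9D1-AS1 lies across VPS9D1, which encodes a protein with a VPS9 domain, a fold that acts on small GTPases of endosomes. It stood at 51.5 in K562 (95% Poisson interval 48.8 to 54.3, counting error only), 9.95 in THP-1, 7.91 in the MOLM13-labelled library and was listed at 0 in HL60. K562 was 5.18-fold above THP-1, the next line. The coding gene VPS9D1 was listed at 0 in all 4 libraries although nearly all of the antisense gene's bases fell on exons shared with it. The files thus list signal on those exons under the antisense name and none under VPS9D1.

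SLC25A5-AS1 sits over SLC25A5, the ADP/ATP carrier of the inner mitochondrial membrane. Its level was 11.8 in K562, 13.3 in THP-1, 6.0 in the MOLM13-labelled library and 48.9 in HL60, which was 3.67-fold above the next line. SLC25A5 itself stood at 467, 508, 616 and 933, so the carrier was 39.6, 38.2, 103 and 19.1 times as high as its antisense gene. HL60 was highest for both, and the MOLM13-labelled library was lowest for the antisense gene but not for the carrier.

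Both GSN-AS1 and NFYC-AS1 were high in THP-1 and lay wholly on shared exons. GSN-AS1 stood at 0.522, 37.4, 0.195 and 1.85, beside GSN, the actin-severing protein gelsolin, at 14.7, 815, 41.3 and 116. NFYC-AS1 stood at 3.32, 33.0, 3.23 and 2.05, beside NFYC, a subunit of the CCAAT-binding factor NF-Y, at 33.0, 924, 23.4 and 90.2. THP-1 was the highest library for each antisense gene and for each parent. The GSN level was 21.8 times that of its antisense gene there, and the NFYC level 28 times.

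Also among the 12 members with the highest level, THAP9-AS1, MAPKAPK5-AS1 and RAB30-DT stood above their parents. THAP9-AS1, the third highest member, opposite the transposase-derived gene THAP9, stood at 31.9, 49.3, 6.23 and 18.8, and THAP9 at 2.46, 1.52, 0.990 and 0.684. SEC31A, which also shares exon bases with THAP9-AS1, stood at 59.9, 60.7, 57.1 and 45.2, above it in all 4 libraries. MAPKAPK5-AS1 stood at 29.8, 11.3, 10.8 and 10.9, and the kinase gene MAPKAPK5 at 1.60, 0.610, 1.02 and 0.571. RAB30-DT, divergent to a Golgi GTPase gene, stood at 15.3, 3.78, 25 and 6.28, and RAB30 at 0, 0, 0.773 and 0.0937. THAP9-AS1 was highest in THP-1, MAPKAPK5-AS1 in K562 and RAB30-DT in the MOLM13-labelled library, and all 3 were above their parents in all 4 libraries. Shared exons held 93.5% of the THAP9-AS1 bases and 93.4% of those of RAB30-DT, the latter with AP001767.2 and the pseudogene COX5BP4.

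Several members were present in all 4 libraries at similar levels. SCOC-AS1, which overlaps the Golgi coiled-coil gene SCOC, stood at 13.8, 16, 9.14 and 12.1 and shares no exon base with another gene. NUP153-AS1, over the nuclear pore gene NUP153, stood at 11.8, 19, 8.74 and 13.4, and SMARCA5-AS1, over the chromatin remodeller SMARCA5, at 9.86, 13.6, 7.20 and 13.3. TMEM202-AS1 stood at 4.68, 8.56, 10.3 and 5.26, with its bases on exons shared with the ubiquitin ligase gene ARIH1 or with TMEM202. PSMA3-AS1 stood at 6.42, 21.7, 10.9 and 6.33 and ZNF433-AS1 at 6.93, 25.8, 11.2 and 11.9. The highest and lowest libraries of SCOC-AS1 and SMARCA5-AS1 were less than 4-fold apart, the size used below to call a line high, and in both THP-1 was highest and the MOLM13-labelled library lowest.

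**Figure D1:**
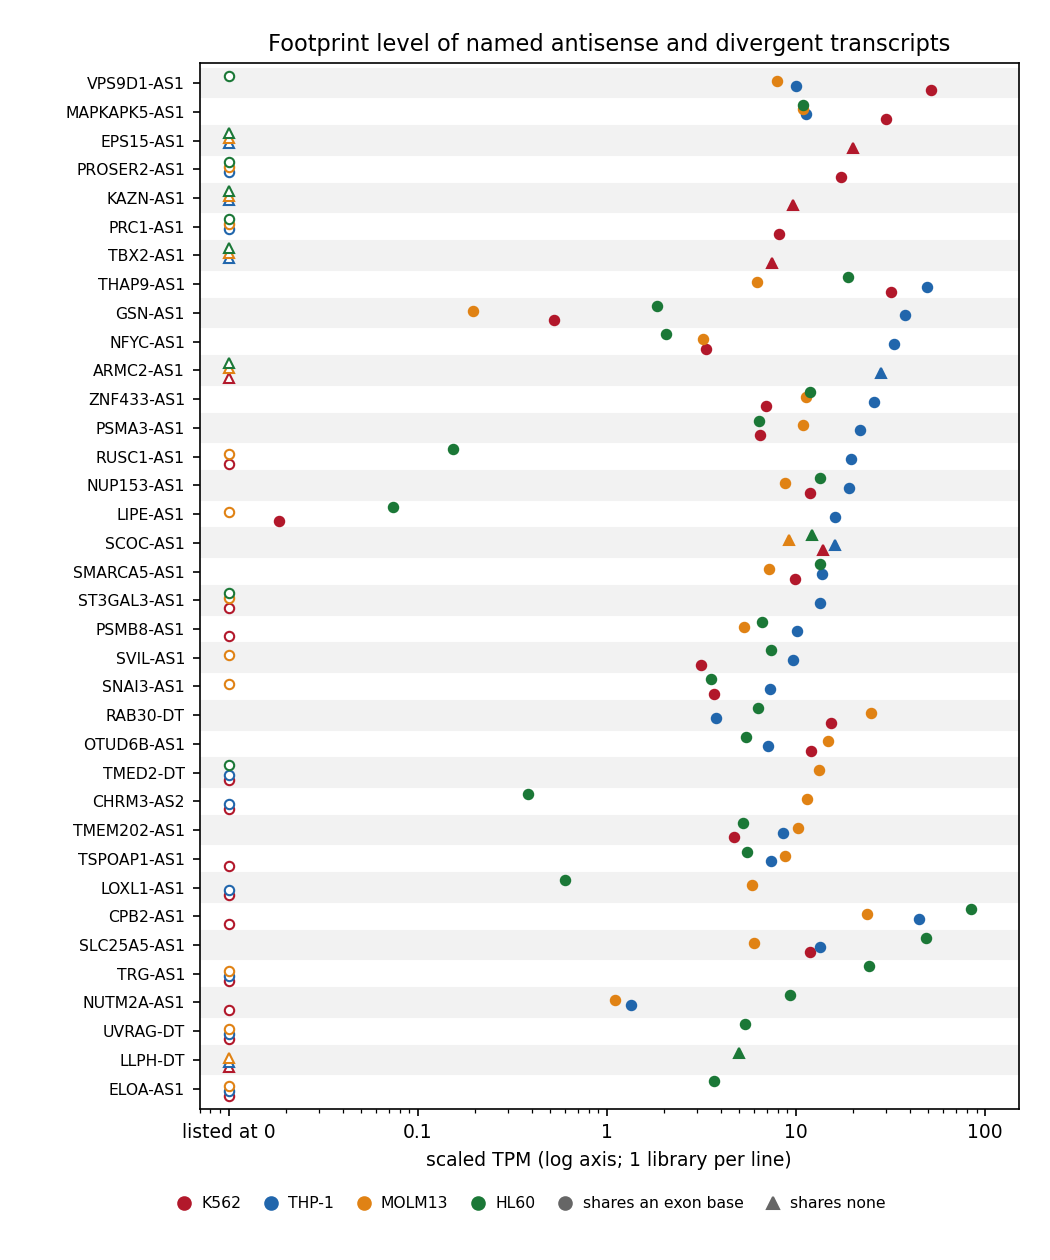
Scaled TPM on a log axis for members named for their level, for a high or low line or for their lowest level, with 1 point per library in the colour of its line and open points for genes listed at 0. Circles share an exon base with another gene and triangles do not. CPB2-AS1 in HL60 is the highest point at 84.3, and EPS15-AS1, ARMC2-AS1 and TRG-AS1 have a filled point in 1 line each.

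Signal was spread unevenly over the members. In K562 106 members met the minimums, in THP-1 148, in the MOLM13-labelled library 113 and in HL60 108. Passing in a single library was the most common case, with 134 members, against 51 in 2, 37 in 3 and 32 in all 4. A total of 166 members were listed at 0 in at least 1 library, and 88 were above 0 in all 4. The median level over the 254 members was 0.526, 1.29, 0.633 and 0.664, with THP-1 highest. The deepest library, HL60, had fewer passing members than THP-1.

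At the edge of the rule, DLG1-AS1 entered with a TPM of 1.02 and ODC1-DT stayed out with 0.999. By aligned bases, CLCA4-AS1 entered with 608 and LCT-AS1 stayed out with 598. At 600 bases a level rests on 20.7 footprint equivalents (aligned bases divided by 29), with 95% Poisson bounds at 61.7% and 153% of the value, for counting error alone.

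Most members shared exon bases with other genes. At least 1 exon base was shared by 194 of 254 members (76.4%), against 429 of 634 other lncRNA genes that met the same minimums (67.7%) and 802 of 1363 genes with the same kinds of names under the minimums (58.8%). Among the members, 107 overlapped a coding exon, 170 an exon of the parent and 6 a small RNA gene. Of the -AS genes 174 of 216 shared an exon base, and of the -DT genes 20 of 38.

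By aligned bases, 28.7% of the members' signal in K562, 48.5% in THP-1, 38.6% in the MOLM13-labelled library and 58.1% in HL60 lay on exons that overlap a coding exon of another gene. Exons that overlap no other gene's exon held 48.6%, 31.7%, 38.0% and 25.3%. HL60 thus had the smallest unshared share and K562 the largest, and the rest lay on exons that overlap non-coding exon parts. These shares are of summed bases, so a single gene can weigh on them. CPB2-AS1, with all its bases on shared exons, held 268761 aligned bases in HL60 and 0 in K562. Over all members, exons that overlap a coding exon held 600392 bases in HL60. Exons shared with small RNA genes held 2.33%, 0.312%, 0.876% and 0.208%. For the other lncRNA genes, unshared exons held 26.2%, 31.4%, 23.6% and 45.7%.

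**Figure D2:**
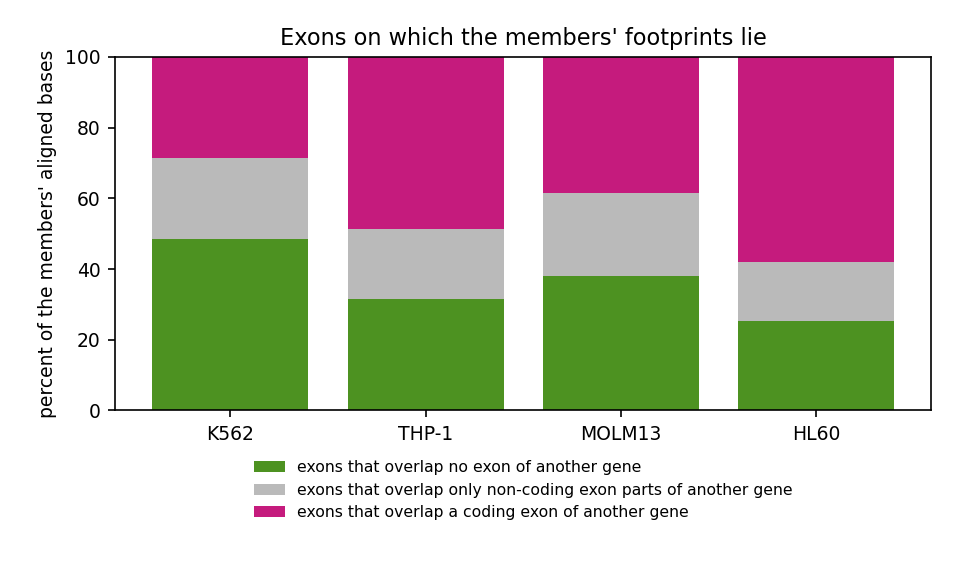
Percent of the members' aligned bases in each library on 3 classes of exon: those that overlap no exon of another gene, those that overlap non-coding exon parts, and those that overlap a coding exon. The unshared class runs from 25.3% in HL60 to 48.6% in K562. The HL60 bar includes 268761 bases of CPB2-AS1, all on shared exons.

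Members differed in this from one extreme to the other. In 43 members at least 90% of the bases, summed over the libraries, lay on exons that overlap a coding exon. BACE1-AS, opposite the beta-secretase gene, was one of them, at 8.44, 0.642, 5.93 and 0.139, with BACE1 at 2.28 in THP-1 and listed at 0 in the other 3. TMPO-AS1, over the nuclear lamina gene TMPO, was another, at 0.530, 12.6, 4.32 and 1.93, beside TMPO at 124, 107, 147 and 138. TMPO-AS1 ranged over more than 4-fold between libraries in which TMPO did not. Outside that set of 43, RBM12B-AS1, wholly on exon parts shared with another gene but with no coding sequence, stood at 16.8, 11.2, 7.58 and 3.39, and RBM12B at 12.1, 22.5, 13.1 and 6.47.

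At the other extreme 89 members had all, or all but a trace, of their bases on unshared exons. At least 600 unshared bases were reached by 166 members in some library and by 21 in all 4, and 88 reached them in none. Members with many unshared bases included EPB41L4A-AS1, at 2.30, 3.65, 1.54 and 2.63, OTUD6B-AS1, at 12, 7.11, 14.8 and 5.43, and PCBP1-AS1, at 4.37, 1.31, 3.14 and 8.29. These 3 were above 0 in every library, with the lowest level in the MOLM13-labelled library, HL60 and THP-1 in that order. Neither OTUD6B, a deubiquitinase gene, at 17.8, 11.3, 26.7 and 6.60, nor PCBP1, a poly(C)-binding protein gene, at 321, 320, 264 and 448, was below its antisense gene in any library. EPB41L4A, at 0, 0.244, 0.368 and 0, was below its antisense gene in all 4.

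Of the others with many unshared bases, CCDC144NL-AS1 stood at 10.7 in THP-1 and at 0 elsewhere, and with the levels of genes sharing its exon bases added THP-1 was no longer the highest. KDM4A-AS1 stood at 0, 8.96, 0 and 0.487, beside the histone demethylase gene KDM4A at 11.3, 217, 26.9 and 15.6. TMEM161B-AS1 stood at 3.20, 18.8, 1.72 and 1.33, beside TMEM161B at 14.9, 12.7, 13.7 and 12.1. These 3 were highest in THP-1, as was KDM4A, whereas TMEM161B was highest in K562. Of the bases of KDM4A-AS1 10.1% lay on exons that overlap a coding exon, and of those of TMEM161B-AS1 35.9% lay on shared exons.

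OIP5-AS1, a widely studied cytoplasmic lncRNA opposite OIP5, a factor that loads centromeric histone, shares its first exon with other genes. It stood at 2.87 in K562, 2.67 in THP-1 and 3.64 in HL60 and was listed at 0 in the MOLM13-labelled library. OIP5 stood at 29.9, 0, 24.9 and 32.5. AC087721.2, which also shares an exon with OIP5-AS1, stood at 3.07, 0, 62.5 and 0 and was thus highest where OIP5-AS1 was at 0. In the OIP5-AS1 transcript with most bases, exon 1 (106 bases, shared) had a mean coverage of 87.7, 111, 0 and 250, and exon 4 (8494 bases, unshared) 0.109, 0.244, 0 and 0.289.

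High in a line here means 600 aligned bases in that line and a log2(scaled TPM + 1) that exceeds each of the other 3 lines by at least 2, which is 4-fold. Low is the mirror case, with 600 bases in each of the other lines. No test is possible with 1 library per line, and the calls use the same levels that chose the members. In K562 10 members were high, beside 2.49% of all 15925 genes that met the same minimums, in THP-1 21 beside 3.54%, in the MOLM13-labelled library 3 beside 2.00% and in HL60 7 beside 1.75%. As shares of the 254 members these were 3.94%, 8.27%, 1.18% and 2.76%, and among the other 634 lncRNA genes they were 6.31%, 7.57%, 3.15% and 1.89%. The members' shares thus lay above that of all genes in K562, THP-1 and HL60, and below that of the other lncRNA genes in K562 and in the MOLM13-labelled library. In 25 of the 41 high calls the other 3 libraries were listed at 0, so no fold can be given. With the doubtful MOLM13-labelled library set aside, 16 members were high in K562 beside 5.05% of all genes. In THP-1 27 were high beside 4.63%, and in HL60 8 beside 2.59%. Setting a line aside can only keep or raise such counts under this rule, so a rise is no finding about a line.

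Low calls were fewer. In K562 3 members were low, beside 3.05% of all genes, in THP-1 0 beside 0.496%, in the MOLM13-labelled library 2 beside 1.35% and in HL60 1 beside 1.12%. All 6 were listed at 0 in the low line, and all 6 share exon bases with other genes. Without the MOLM13-labelled library 5 members were low in K562 beside 6.46% of all genes, 0 in THP-1 beside 0.797% and 2 in HL60 beside 1.73%.

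**Figure D3:**
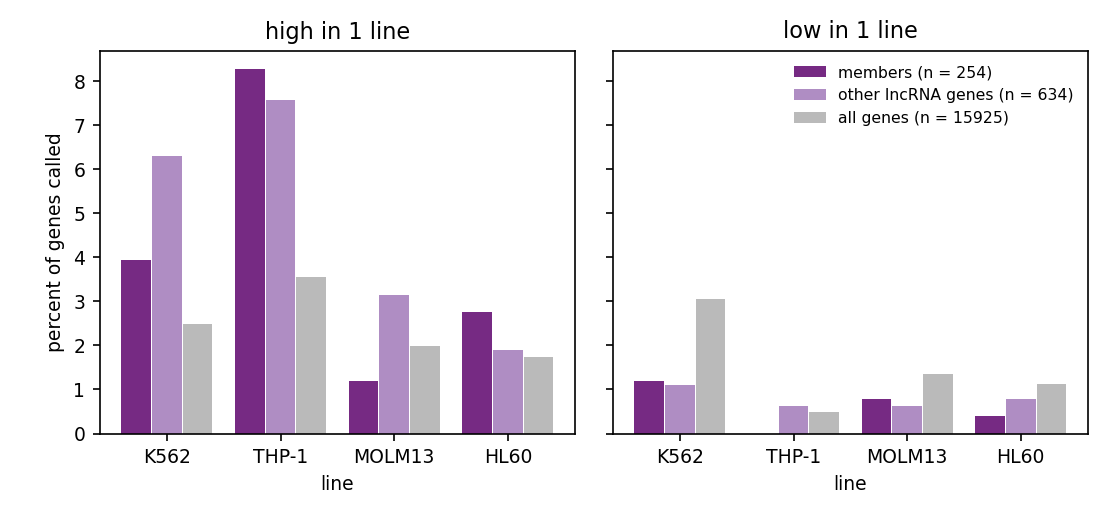
Percent of genes called high (left) or low (right) in each line, for the 254 members, the 634 other lncRNA genes and all 15925 genes that met the same minimums. The tallest member bar is THP-1 high at 8.27%, and no member is low in THP-1.

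In K562 the high members with the largest distance were EPS15-AS1, PROSER2-AS1, KAZN-AS1, PRC1-AS1 and TBX2-AS1, at 20.0, 17.2, 9.64, 8.15 and 7.44, and all 5 were listed at 0 in the other 3 libraries. EPS15-AS1 overlaps the endocytic adaptor gene EPS15 without sharing an exon and rested on 75.8 footprint equivalents (interval 15.8 to 25.1). EPS15 stood at 21.6, 9.16, 15.6 and 6.23 and so was present in all 4 lines. PROSER2-AS1 had 803 footprint equivalents, 99.2% of them on unshared exons, with a coverage of 44.4 on its first exon. PRC1-AS1 differed from these, since its bases lay on exons shared with PRC1, a cytokinesis microtubule bundler, which stood at 84.9, 133, 101 and 48.4. With the levels of the sharing genes added, K562 was no longer the highest library.

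In THP-1 the largest distances were those of ARMC2-AS1, RUSC1-AS1, LIPE-AS1, ST3GAL3-AS1 and GSN-AS1. ARMC2-AS1 lies inside ARMC2, a gene of the sperm axoneme that was listed at 0 in all 4 libraries. ARMC2-AS1 stood at 28 in THP-1 (63.7 footprint equivalents, interval 21.6 to 35.8) and at 0 elsewhere, with its 2 exons of 43 and 69 bases at a coverage of 20.0 and 14.3. By aligned bases not divided by length, its distance fell from 4.86 to 1.90 (log2), below the size rule. ST3GAL3-AS1 stood at 13.3 in THP-1 and at 0 in the others, and the sialyltransferase gene ST3GAL3 at 0, 108, 1.37 and 0.330. Both ST3GAL3-AS1 and its parent were highest in THP-1. RUSC1-AS1 stood at 19.6 in THP-1, 0.152 in HL60 and 0 in the other 2, and shares exons with FDPS, the farnesyl diphosphate synthase of the mevalonate pathway, which stood at 239, 416, 220 and 409. FDPS was thus present in all 4 libraries, 2 of which listed RUSC1-AS1 at 0, and the high call of RUSC1-AS1 did not hold with the sharing genes added. LIPE-AS1 stood at 0.0185, 16.1, 0 and 0.0741, and its parent LIPE, the hormone-sensitive lipase, at 0.498 in THP-1 and 0 elsewhere.

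In the MOLM13-labelled library the 3 high members were TMED2-DT, CHRM3-AS2 and LOXL1-AS1. TMED2-DT stood at 13.1 there and at 0 elsewhere, wholly on an exon of 904 bases shared with TMED2, a cargo receptor of the early secretory pathway, at 57.4, 72.0, 84.9 and 146. With the level of TMED2 added, that library was no longer the highest. CHRM3-AS2 stood at 11.4 and in HL60 at 0.384, with a first exon at a coverage of 16.7, exon 2 at 5.11 and exon 3 at 0. LOXL1-AS1 stood at 5.82 and in HL60 at 0.601, and the parents CHRM3, a muscarinic receptor, and LOXL1, a lysyl oxidase, were listed at 0 in all 4 libraries.

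In HL60 TRG-AS1 had the largest distance, followed by UVRAG-DT, LLPH-DT, ELOA-AS1 and NUTM2A-AS1. TRG-AS1 lies in the T-cell receptor gamma locus and stood at 24.2 (736 footprint equivalents, interval 22.4 to 26) and at 0 in the other 3, with 98% of its bases on unshared exons. LLPH-DT starts 1 base from LLPH and stood at 4.97 in HL60, where LLPH stood at 5.61, and neither was above 0 in K562, THP-1 or the MOLM13-labelled library. NUTM2A-AS1 stood at 0, 1.34, 1.10 and 9.26, with NUTM2A at 0 in all 4. With the levels of genes sharing an exon base added, the high calls of UVRAG-DT and ELOA-AS1 did not hold. By aligned bases not divided by length, 3 distances fell below the log2 rule of 2. They went from 2.66 to 1.69 for UVRAG-DT, 2.58 to 1.97 for LLPH-DT and 2.13 to 0.55 for NUTM2A-AS1.

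The high members not described elsewhere fall outside the rule for named genes and are listed for completeness. They were CDC37L1-DT, MYCBP2-AS1 and TMEM132D-AS1 in K562, KMT2E-AS1 and SRP54-AS1 in HL60, and CEP250-AS1, CYP4A22-AS1, DOCK8-AS1, EP300-AS1, LAMTOR5-AS1, NNT-AS1, PIK3CD-AS1, PSMG3-AS1, PTPRN2-AS1 and TFAP2E-AS1 in THP-1. PIK3CD-AS1 stood at 4.33 in THP-1 and at 0 elsewhere, and PIK3CD, the leukocyte phosphoinositide kinase, at 0, 23.6, 2.21 and 15.9. EP300-AS1 stood at 3.62 in THP-1 and at 0 elsewhere, and the histone acetyltransferase gene EP300 at 12.4, 14.0, 13.9 and 11.6. PIK3CD was thus highest in THP-1 with its antisense gene, while EP300 varied little.

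The low members were PSMB8-AS1, CPB2-AS1 and TSPOAP1-AS1 in K562, SVIL-AS1 and SNAI3-AS1 in the MOLM13-labelled library and VPS9D1-AS1 in HL60. PSMB8-AS1 lies over PSMB8, a subunit of the immunoproteasome, and stood at 0, 10.1, 5.31 and 6.60, beside PSMB8 at 0.616, 400, 47.6 and 224. PSMB9, another such subunit that shares exon bases with it, stood at 2.18, 164, 9.92 and 62.6, and all 3 were lowest in K562. TSPOAP1-AS1 stood at 0, 7.41, 8.71 and 5.48 and shares exon bases with SUPT4H1, a transcription elongation factor, at 77.3, 60.1, 5.61 and 142. With the levels of all genes sharing its exon bases added, K562 lay 1.83 (log2) above the lowest line, so the low call ended and its direction turned. SVIL-AS1 stood at 3.12, 9.60, 0 and 7.39 and SNAI3-AS1 at 3.67, 7.31, 0 and 3.54, and neither low call held with the sharing genes added. Of the 29 high calls of members that share an exon, 15 remained at 4-fold when the levels of all genes sharing an exon base were added to the member, and of the 6 low calls 2 did. Such a sum can be mostly the sharing gene. In THP-1 it was 853 for GSN-AS1, with GSN at 815, and 957 for NFYC-AS1, with NFYC at 924. For TRG-AS1 in HL60 the sum was its own level of 24.2. A call that remained therefore does not by itself describe the member.

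Parents were found for 252 of 254 members, all on the opposite strand. The pair shared exon bases in 170 cases, overlapped without a shared exon in 37 and lay head to head within 2 kb in 43. The -DT genes were mostly head to head (23 of 38) and the -AS genes mostly shared an exon (157 of 216). In the library where the member was highest, it lay above its parent in 102 of 252 pairs. Divided by position this was 68 of 170 pairs with a shared exon, 20 of 37 overlapping pairs and 12 of 43 head-to-head pairs. The median of log2((member + 1) / (parent + 1)) was -1.02, 1.30 and -1.61 in these classes. The library was chosen by the member's highest level, with no such choice for the parent, and 15 of the 37 overlapping parents were listed at 0 there, so these counts and medians describe the pairs and rank no class. In 34 pairs the parent was listed at 0 in all 4 libraries.

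**Figure D4:**
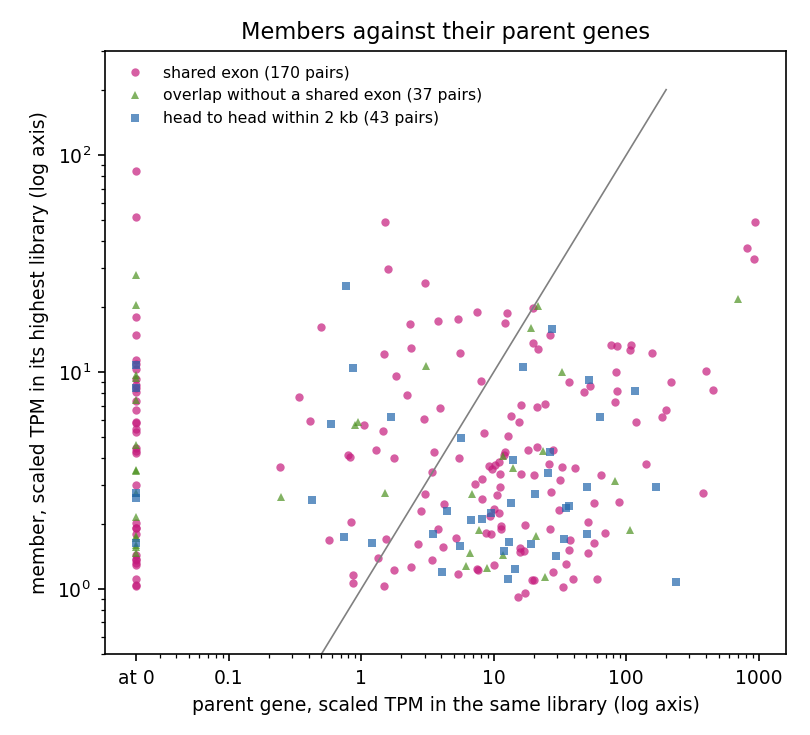
Scaled TPM of each member in its highest library against that of its parent in the same library, on log axes, with the line of equal levels. Points at the left edge are pairs whose parent was listed at 0 in that library, 33 with a shared exon, 15 overlapping and 5 head to head. Above the line lie 68, 20 and 12 pairs of these classes.

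Many libraries listed 1 gene of a pair at 0. Over 680 combinations of pair and library with a shared exon, both genes were above 0 in 365, the member was at 0 and the parent above it in 164, the parent at 0 and the member above it in 101, and both at 0 in 50. Overlapping pairs without a shared exon gave 41 of 148 with both above 0, 41 with the member alone at 0 and 31 with the parent alone at 0. Head-to-head pairs gave 98 of 172 with both above 0, 47 with the member alone at 0 and 11 with the parent alone at 0. A single gene at 0 thus made up 39.0%, 48.6% and 33.7% of the combinations in these classes. With a shared exon it was less frequent than in overlapping pairs without one and more frequent than in head-to-head pairs. The parent was at 0 in every library in 18 of 170, 13 of 37 and 2 of 43 pairs, so the classes are unlike in this too. The files do not tell a lack of signal from reads given to the other name.

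Head-to-head pairs with no shared exon bear most directly on a divergent transcript and its neighbour. There were 31 of them, with starts 1 to 417 bases apart, and the parent was the higher in 23, in the library where the member was highest. URB1-AS1, beside the ribosome biogenesis gene URB1, stood at 8.53, 1.46, 10.5 and 1.47, and URB1 at 19.9, 9.93, 16.5 and 13.6. URB1-AS1 thus ranged more widely than its parent over the same libraries. It was picked after its values were seen, among the head-to-head members with no shared exon that met the minimums in all 4 libraries.

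Member and parent were compared between lines by their log2 distance from the mean of the other 3 lines. Among 123 combinations in which both were at least 1 away, they lay on the same side in 92 and on opposite sides in 31. By position the same side held 62 of 84 with a shared exon, 10 of 14 overlapping and 20 of 25 head to head. Without any shared exon it was 22 of 29. Across 1008 combinations of pair and line Pearson's r of the 2 distances was 0.25, a description, since the points share libraries and many pairs share reads.

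Some members lay on the other side from their parents. PCCA-DT, divergent to the propionyl-CoA carboxylase gene PCCA with starts 65 bases apart, stood at 10.8, 2.1, 4.34 and 1.70, while PCCA stood at 0, 13.3, 19.6 and 3.06. PCCA-DT was highest in K562, where PCCA was at 0. GATA2-AS1, which overlaps the stem-cell factor gene GATA2, stood at 5.64, 5.89, 0 and 2.87, while GATA2 stood at 7.19, 0.951, 20.4 and 0.993, so the MOLM13-labelled library had the most GATA2 and GATA2-AS1 at 0. TMCC1-AS1 stood at 0, 10.4, 0 and 0.884 and TMCC1 at 1.11, 0.867, 12.5 and 0.441. NR2F2-AS1 stood at 10.0, 0.503, 0.829 and 0.269, with the nuclear receptor gene NR2F2 at 32.6, 0.914, 6.56 and 29.6, and FOXN3-AS1 at 1.75 in K562, where FOXN3 was at 0. K562 had the highest level of both NR2F2-AS1 and NR2F2, and HL60 the lowest of NR2F2-AS1 but not of NR2F2.

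Among 26 antisense or divergent transcripts of regulators of blood cells and leukemia, 9 were members and 14 were listed at 0 in every library. CEBPA-DT, head to head with the myeloid factor gene CEBPA, stood at 0, 4.29, 1.26 and 1.31, and CEBPA at 0.0259, 26.7, 4.20 and 15.9. WT1-AS stood at 4.36, 0.864, 1.74 and 1.20 and WT1, a zinc-finger factor often raised in leukemia, at 28, 5.11, 17.1 and 7.62. THP-1 was highest for CEBPA-DT and CEBPA, and K562 was highest and THP-1 lowest for WT1-AS and WT1. IRF1-AS1 stood at 1.04, 6.27, 1.28 and 0.0396 and the interferon factor gene IRF1 at 0, 13.4, 3.52 and 13.7. For IRF1-AS1 THP-1 was highest and HL60 lowest, although HL60 had the highest IRF1. ZEB2-AS1 stood at 3.33 in THP-1 and 0 elsewhere, with ZEB2 at 4.89, 64.1, 6.49 and 10.7, and it was the 1 member of this list called high in a line. SATB1-AS1 stood at 1.87 in THP-1 and 0 elsewhere, with the chromatin organiser gene SATB1 at 0.711, 106, 34.5 and 1.39. CDKN2B-AS1 (also known as ANRIL) stood at 0.854, 0.119, 5.69 and 1.04, and ZEB1-AS1 at 2.17, 0.567, 4.14 and 4.25. Of the CDKN2B-AS1 bases 89.1% lay on shared exons. CDKN2A, which shares exon bases with it, stood at 24.9, 1.09, 38.4 and 7.19, with the same highest and lowest libraries. WT1-AS and ZEB1-AS1 also have exons that share bases with another gene. THP-1 was highest for SATB1-AS1 and lowest for CDKN2B-AS1 and ZEB1-AS1. In 6 of the 9 at least 600 bases lay on unshared exons in some library.

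Of 24 widely studied antisense transcripts with such names, 16 were members, 14 of them with 600 unshared bases in some library, and 2 were called high in a line, NUTM2A-AS1 and LOXL1-AS1. FGD5-AS1 stood at 0, 4.21, 4.03 and 0.605, TTN-AS1 at 0.447, 6.71, 3.54 and 0.204 and DHRS4-AS1 at 0, 6.84, 0 and 2.88. All 3 were highest in THP-1. MCM3AP-AS1 stood at 4.5, 0.624, 2.16 and 0.697 and was highest in K562. SBF2-AS1 stood at 1.09 in THP-1 and 1.68 in HL60, MAFG-DT at 1.20 in THP-1 and 0.95 in the MOLM13-labelled library, and TAPT1-AS1 at 1.43 in THP-1, each at 0 in the libraries not given.

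The position of signal along a transcript was read from exons that share no base with another gene. For each member, the transcript with the most aligned bases was taken in each library among those with at least 2 exons, all unshared, and 600 bases, which 85 members had in some library. Coverage was higher on the first exon than on the later ones in 29 of 42 members in K562, 34 of 46 in THP-1, 24 of 30 in the MOLM13-labelled library and 30 of 38 in HL60. The other lncRNA genes gave 69.7%, 74.5%, 71.4% and 75.3%, so a first exon above the later ones was not particular to the members. The later exons were pooled, so 1 of them can still exceed a first exon counted as higher. In OTUD6B-AS1 in THP-1 exon 1 stood at 19.9 and exon 2 at 56.8, and in NR2F2-AS1 in K562 at 4.23 and 14.9. The median coverage of members was 3.15 on first exons against 0.495 on later ones in K562, 3.77 against 0.774 in THP-1, 2.85 against 0.359 in the MOLM13-labelled library and 4.02 against 0.474 in HL60. First exons held a median of 66.0%, 46.8%, 49.9% and 55.2% of a transcript's bases in 16.1%, 16.4%, 14.7% and 16.5% of its length.

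SCOC-AS1, whose first exon is printed above, had a coverage of 17, 27, 4.70 and 27.2 on that exon, 0, 13.8, 6.47 and 26.2 on exon 2 and 2.28, 1.63, 0.797 and 0.133 on exon 3. LLPH-DT had 12.3 on the first and 0.176 on the second exon in HL60, and TRG-AS1 32.4 and 8.38. KAZN-AS1 had 11.9 and 0.143 in K562. PCCA-DT had 20.1 in K562 on the first of 3 exons in its main transcript and 0 on both others. In these libraries the first exon carried the highest coverage, except for SCOC-AS1 in the MOLM13-labelled library, where exon 2 did.

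**Figure D5:**
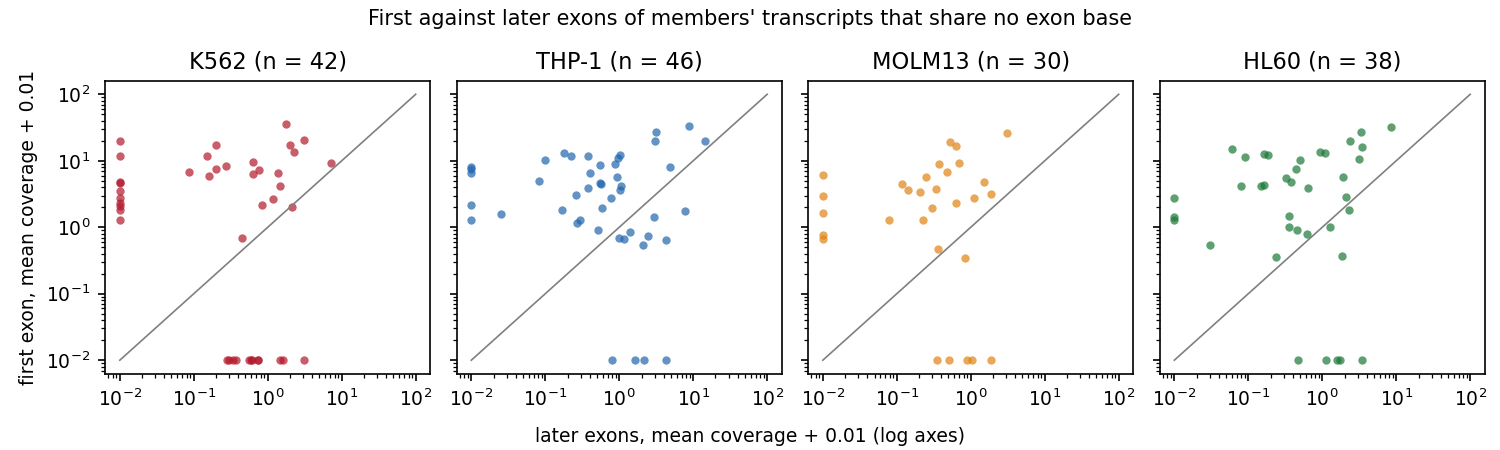
Mean coverage per base of the first exon against that of all later exons, plus 0.01, on log axes, for 1 transcript per member in each library, with the line of equal coverage. Points above the line number 29 of 42, 34 of 46, 24 of 30 and 30 of 38 from left to right.

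Reading frames were compared with coverage in the same kind of transcript. In GENCODE 29 transcripts with the same exons, the first exon held an ATG in 11 of 20 members in K562, 18 of 28 in THP-1, 10 of 13 in the MOLM13-labelled library and 17 of 22 in HL60. The longest frame from an ATG to a stop codon had a median of 226.5, 178.5, 210 and 235.5 bases. Where a transcript had exons with and without a part of that frame, the exons with it had the higher coverage in 5 of 17, 8 of 22, 5 of 11 and 9 of 18 members. Exons with the frame were thus the more covered in at most as many transcripts as not, in each library. The frame reached the first exon in only 5 of 20, 9 of 28, 5 of 13 and 7 of 22 members. Later exons were mostly the less covered, so this comparison cannot tell the frame from the exon's place. Reading phase of the footprints was not analysed here.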

How the data were processed

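Ribosome footprints were measured in 1 library for each of 4 lines. Per the submitters' processing notes, the authors used StringTie 2.1.5 on hg38, and the notes also name STAR 2.7.8a, Bowtie2 2.4.2 and Trim Galore 0.6.6. Per the file headers, StringTie quantified read 1 against GENCODE 37 without a strand option and without new transcripts. Deposited are TPM per transcript and mean coverage per transcript and exon, per the file headers. They were not counts, so depth was taken as aligned bases (coverage times length), and footprint equivalents as aligned bases divided by 29, the modal value on single-exon transcripts.

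TPM was summed per gene and divided by a factor per library, from the median log2 difference across the 3751 genes at a TPM of 10 or more in every library. Calls used log2(scaled TPM + 1) and a fixed size rule, and were checked on simulated data. An exon was shared when at least 1 base overlapped an exon of another gene on either strand, so a shared exon can be mostly unshared. Gene types and coding exons came from GENCODE 29, in which 5 members were not lncRNA genes and 249 were. Sequences came from 1362 GENCODE 29 transcripts of 251 members with identical exons. Python 3.11.15, pandas 2.3.3, NumPy 2.4.6 and SciPy 1.17.1 were used.

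Named are the 12 members with the highest level, the 5 with the largest distance among those high in each line and up to 3 low ones, the 10 with the highest minimum, members of lists of regulators' antisense transcripts and of widely studied ones, the 5 with no shared exon that lay farthest against their parent, and the 8 each with most unshared bases and the largest shared share. The members and lists were chosen with earlier results of these data known, so no list's count is independent support. Some named members are not reported here.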

Additional observations from a re-analysis of the deposited data

How the results depend on the processing

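No paired analysis was possible because each line has 1 library. The number of members ran from 174 to 289 over other minimums (254 in the report), and members with unshared signal from 126 to 173 (166 in the report). The counts of members high in a line (10 in K562, 21 in THP-1, 3 in the MOLM13-labelled library and 7 in HL60) were 22, 44, 20 and 23 with an added constant of 0.1 and 2, 5, 0 and 1 with 5. They were 30, 55, 31 and 25 at a log2 difference of 1. At 3 they were 5, 8 and 1 in K562, THP-1 and HL60. Among the 60 members that share no exon base they were 6, 5, 0 and 1. With genes listed at 0 in any library left out, which keeps 88 members, they were 1, 4, 0 and 0. Without the MOLM13-labelled library, K562 had 16 high members, and that library gives no value there. Not divided by length, the MOLM13-labelled library had 12. With the levels of all genes sharing an exon base added, chosen after seeing the data, HL60 had 4. The share of all genes called, high or low, was taken only at the main setting and without the MOLM13-labelled library. Counts at the other settings therefore cannot be read as above or below it.

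The low counts (3, 0, 2 and 1) were 12, 4, 9 and 5 with a constant of 0.1, 11, 2, 7 and 5 at a log2 difference of 1, and 7, 1, 4 and 2 not divided by length. In K562, the MOLM13-labelled library and HL60 they were 1, 0 and 0 with a constant of 5 and 0, 0 and 0 both without shared exons and without genes listed at 0. At a log2 difference of 3 they were 1 in K562 and 0 in the MOLM13-labelled library, and without that library 5 in K562 and 2 in HL60. With the levels of all genes sharing an exon base added, the MOLM13-labelled library had 0. Members lay above their parents in 34 of 82 pairs that share no exon base with each other, against 102 of all 252. Same-side combinations (92, beside 31 on opposite sides) numbered 216 and 11 with constants of 0.1 and 5, beside 125 and 1 on opposite sides. Without shared exons they numbered 22 beside 7. At log2 differences of 0.5 and 2 they numbered 249 and 16, beside 125 and 3.

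Of 187 recalculated distances of 32 named calls, 143 stayed past the size rule, 39 kept their direction below it and 5 reversed. The 5 reversed when the levels of genes sharing an exon base were added: CCDC144NL-AS1 in THP-1 to -1.43, ELOA-AS1 in HL60 to -0.0468, PRC1-AS1 in K562 to -0.36, TMED2-DT in the MOLM13-labelled library to -0.57, and TSPOAP1-AS1 in K562 to 1.83. Of the 187 distances, the 32 with a constant of 0.1 and the 27 without the MOLM13-labelled library could only stay or grow. Those of members that share no exon base could not change when sharing genes were added. With a constant of 5, 9 stayed past the rule and 23 fell below it. Not divided by length, 24 stayed and 8 fell below. Depth limits members near 600 bases most, and a gene listed at 0 may have signal assigned to another name.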
